A study of Mus musculus with 6 samples.

Results

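The replication-dependent histone genes were followed in RNA sequencing of 6 samples of mouse heart, 3 wild-type and 3 with Arrdc4 knocked out by CRISPR-Cas9, all on the C57BL/6 background. Arrdc4 encodes an alpha-arrestin, an adaptor for ubiquitin ligases. Each sample gave 1 library and is called a heart here, although the labels do not say that each came from a separate animal. They also do not give the age or sex of the mice, the number of founder lines or the deleted part of the gene. Members were the rows of the count table whose Ensembl identifier belongs to a protein-coding mouse gene with a symbol that opens with Hist1h, Hist2h, Hist3h or Hist4h. This rule found 65 of the 49315 rows, 6 genes for linker histone H1, 18 for H2A, 16 for H2B, 12 for H3 and 13 for H4. A further 2 protein-coding genes of this name pattern, Hist1h2bm and Hist1h2bh, were not analysed here, and 3 pseudogenes of the pattern were left out by the rule.

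Replication-dependent histone genes supply the core histones H2A, H2B, H3 and H4 and the linker histone H1 that package newly copied DNA, and most are transcribed in S phase of the cell cycle. They lie in clusters, most lack introns, and their mRNAs usually end in a conserved stem-loop, bound by the protein SLBP, in place of a poly(A) tail. In differentiated cells some of them also give polyadenylated mRNA, and replication-independent genes such as H3f3a and H3f3b supply much of the histone of cells that no longer divide, as most adult cardiomyocytes do not.

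The stem-loop is the feature that sets these mRNAs apart, so it was searched in the annotated transcripts (GENCODE release M21 on GRCm38) after the stop codon. It was found in 44 of the 65 genes. Of the 21 without a match, 15 have an annotated transcript with at most 2 bases after the stop codon, so these genes had no window to search. The window was also short in Hist1h1a and Hist2h3b, with 48 and 37 bases annotated after the stop codon. The following lines show the motif in capitals, 16 bases with a stem of 6 pairs that opens with GG and closes with CC and a loop of 4 bases, with 5 bases on either side, in the 10 genes that were both abundant enough to be tested and had a match. All coordinates are GRCm38.
Hist1h1c, chr13:23739507-23739532, plus strand: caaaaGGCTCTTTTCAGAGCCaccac
Hist1h1e, chr13:23621777-23621802, minus strand: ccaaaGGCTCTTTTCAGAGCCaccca
Hist3h2a, chr11:58955167-58955192, plus strand: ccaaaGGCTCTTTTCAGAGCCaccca
Hist1h2be, chr13:23585526-23585551, minus strand: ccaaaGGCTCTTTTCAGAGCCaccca
Hist3h2ba, chr11:58949344-58949369, plus strand: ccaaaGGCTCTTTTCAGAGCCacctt
Hist2h3c2, chr3:96238480-96238505, minus strand: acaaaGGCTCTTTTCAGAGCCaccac
Hist1h3f, chr13:23544927-23544952, plus strand: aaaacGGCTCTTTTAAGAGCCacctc
Hist1h3e, chr13:23561898-23561923, minus strand: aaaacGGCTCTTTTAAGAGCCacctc
Hist1h4h, chr13:23531453-23531478, plus strand: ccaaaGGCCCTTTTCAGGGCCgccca
Hist1h4i, chr13:22040961-22040986, minus strand: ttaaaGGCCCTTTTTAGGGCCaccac

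The H1, H2A and H2B genes shown share 1 motif letter for letter, and both H4 genes shown carry another stem. Hist1h2bc and Hist2h2be, the H2B genes with the most reads, have 742 and 2192 bases annotated after the stop codon and no match there. In Hist1h2bc the annotated transcript is spliced, with 2 exons.

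The libraries held 29974501 to 41036626 counts. Arrdc4 itself held 349, 307 and 281 reads in wild-type replicates 1 to 3 and 5, 1 and 2 in knockout replicates 1 to 3. All 8 heart markers listed stood at 779 CPM (read counts scaled to TMM-adjusted library sizes) or more in every heart, as the tissue label says. They were Myh6, Tnnt2, Tnni3, Actc1, Myl2, Ryr2, Pln and Ttn. Wild-type replicate 3 and knockout replicate 2 resembled each other more than any other pair, across genotype (chi-square per degree of freedom of 7.80, against 27.1 or more for other pairs). In these hearts Myh6, Ryr2 and Ttn were at their lowest and Tnnt2, Tnni3, Myl2 and Pln at their highest, while Actc1 followed neither order. The cause was not tested. The summed levels, the counts of tested members and the median fold change are also given without these hearts.

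Most replication-dependent histone genes had few reads in these hearts. At least 1 read was found for 43, 40 and 42 of the 65 genes in wild-type replicates 1 to 3 and for 39, 44 and 41 in knockout replicates 1 to 3. The numbers of both genotypes overlap. With at least 10 reads they were 12, 16 and 14 in wild-type and 15, 18 and 16 in knockout hearts. Over the 6 libraries 28 genes had a read in every heart, 25 in 1 to 5 hearts, and 12 in none. No read in a library allows up to 3 counts, or 0.0700 to 0.103 CPM depending on the library, for counting error alone.

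By type, 4 to 5 of the 6 H1 genes had a read in a heart, 6 to 11 of 18 H2A genes, 8 to 12 of 16 H2B genes, 7 to 9 of 12 H3 genes and 9 to 12 of 13 H4 genes. The 12 genes without a read were Hist1h1t, Hist1h2aa and Hist1h2ba, which are known as testis histones, and Hist1h2ao, Hist1h2ap, Hist1h2br, Hist1h4b, Hist2h2aa1, Hist2h2aa2, Hist2h2bb, Hist2h3b and Hist2h3c1.

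Many of these genes have near-identical copies. For each gene, the share of its 50-base stretches that also occur in an annotated transcript of another gene, on either strand, was computed. In 5 genes, all of the second cluster (Hist2h2aa1, Hist2h2aa2, Hist2h2bb, Hist2h3b and Hist2h3c1), every stretch was shared, and none of them had a read. Exons of these 5 also overlap those of other annotated genes, so not all of this sharing is with copies. The share with other histone genes of the name pattern was 100% for Hist2h2aa2 and 89.2% for Hist2h2aa1. It was 79.7% for Hist2h3b, 34.7% for Hist2h3c1 and 0% for Hist2h2bb. The 34 genes with 50% or more shared stretches held 727 reads over all hearts, with a median of 4 per gene, and the 31 genes under 50% held 44098, with a median of 30. The shared stretches were not the only feature of genes at 0, since Hist1h1t shares none and also had no read. The labels do not say how reads that match or overlap several genes were counted. A low count of a gene with many shared stretches is therefore an uncertain measure of its mRNA.

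**Figure D1:**
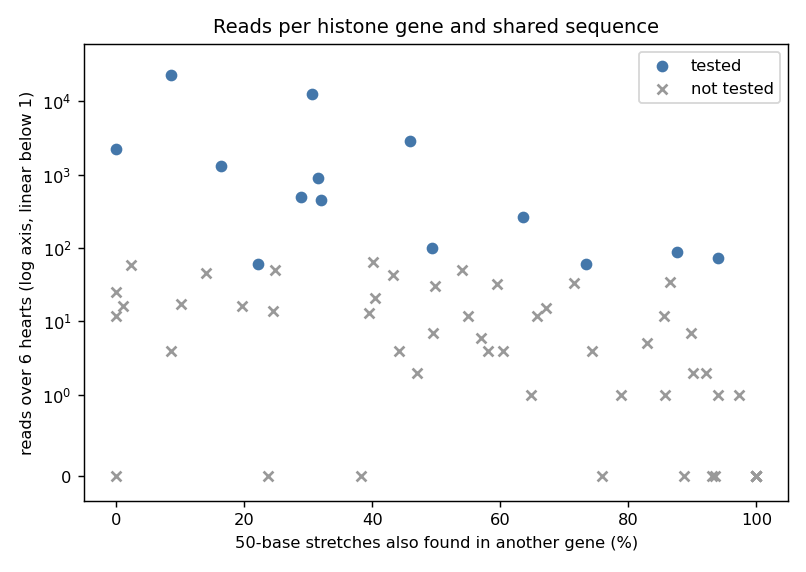
Reads over 6 hearts for each of the 65 genes (vertical, log axis that is linear below 1) against the percentage of its 50-base stretches found in another gene's transcripts (horizontal). Circles are the 14 tested genes and crosses the 51 others; the 5 genes at 100% all lie at 0 reads.

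The family's reads came from a few genes. Of 44825 reads, the H1 genes held 51.7%, the H2B genes 36.6%, the H4 genes 7.76%, the H2A genes 2.47% and the H3 genes 1.40%. Hist1h1c gave 97.6% of the H1 reads, Hist1h2bc 76.9% of the H2B reads and Hist1h4h 81.2% of the H4 reads. Hist1h1c and Hist1h2bc together made up 76.7% to 80.5% of the family's reads in a heart. The first cluster, on chromosome 13, held 92.2% of the reads. Per kilobase of annotated exon, a scale on which genes can be compared, the mean over hearts was 70.0 CPM for Hist1h1c, 52.7 for Hist1h2bc, 29.1 for Hist1h4h, 4.07 for Hist2h2be and 3.27 for Hist1h4i, and 1.97 or less for every other tested member.

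Annotated transcript ends differ among the members as well. The 17 genes with a poly(A) signal (AATAAA or ATTAAA) in the last 50 bases of an annotated coding transcript held 30576 reads and 7 of the 14 tested genes. The 48 without one held 14249 reads and the other 7 tested genes. The 30 genes with 100 or more bases annotated after the stop codon held 41477 reads, and the 35 with fewer held 3348. These are counts of reads and annotations, and the kit named in the labels does not say whether poly(A) RNA was selected.

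The summed level of the 65 genes was 234, 198 and 275 CPM in wild-type replicates 1 to 3 and 166, 269 and 154 CPM in knockout replicates 1 to 3. Wild-type replicate 3 and knockout replicate 2 were the highest hearts, and the genotypes overlap. The means were 236 ± 38.8 CPM (SD, n = 3) in wild-type and 196 ± 63.3 CPM (SD, n = 3) in knockout hearts, a difference smaller than the SD among knockout hearts. The overlap rested on knockout replicate 2, since the other knockout hearts lay below every wild-type heart. Without wild-type replicate 3 and knockout replicate 2, the sums of 234 and 198 CPM in wild-type lay above those of 166 and 154 CPM in knockout hearts, with means of 216 and 160 CPM (n = 2 each). Summed H1 genes stood at 126 ± 19.7 against 97.9 ± 32.8 CPM, H2B at 83.6 ± 14.4 against 74.4 ± 23.9, H4 at 17.5 ± 4.03 against 16.1 ± 5.47, H3 at 3.42 ± 0.662 against 2.64 ± 0.653 and H2A at 5.22 ± 0.128 against 5.21 ± 0.954 (SD, n = 3 each). With all 6 hearts, the genotypes overlapped in each of the 5 types. Without the same libraries, the knockout sums lay below the wild-type sums for H1 (125 and 107 against 81.3 and 76.7 CPM), H2B (81.9 and 70.1 against 63.4 and 58.0 CPM) and H3 (3.89 and 2.66 against 2.15 and 2.38 CPM), and still overlapped for H2A and H4. With 2 hearts a group such a separation is common: 18.6% of all tested genes had every knockout value below every wild-type value in these 4 hearts. In heart tissue, fewer cells that express these genes and less mRNA per cell cannot be told apart.

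**Figure D2:**
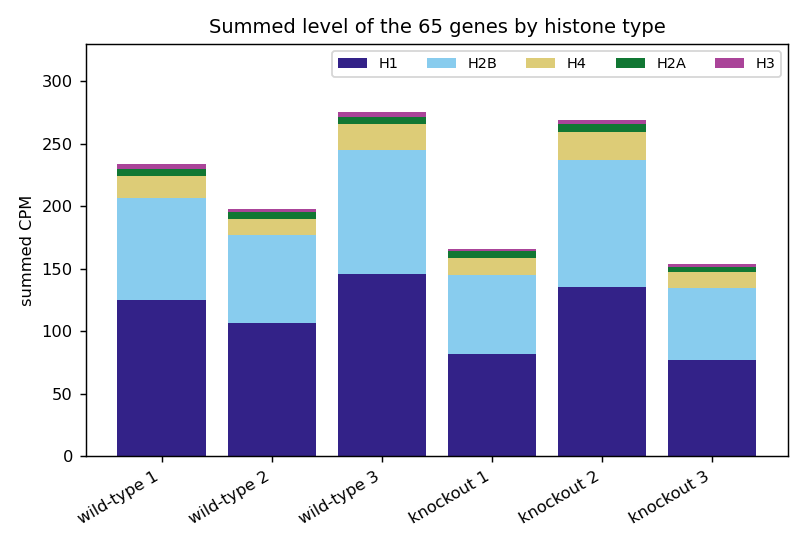
Summed CPM of the 65 genes in each heart, stacked by histone type from 0. The bars of wild-type replicate 3 (275) and knockout replicate 2 (269) are the tallest, and H1 and H2B make up most of every bar.

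Set against the replication-independent genes of the same type, the members' share differed by type. For H1, members gave 49.7% to 57.3% of the CPM per kilobase summed with H1f0 and H1fx. H1f0, the linker histone typical of differentiated cells, gave nearly all of the other part, at 61.8 CPM per kilobase. For H3, members gave 3.68% to 5.09% of the sum with H3f3a, H3f3b and the centromere histone Cenpa. For H2A, members gave 3.69% to 6.06% of the sum with 6 variant genes, among them H2afz and H2afy. The H3 and H2A members include genes with every stretch shared and no read, whose counts are an uncertain measure. The shares of these types are uncertain to that extent. The H1 share was 54.0% to 57.3% in wild-type and 49.7% to 52.6% in knockout hearts. The H3 share was 4.14% to 5.09% in wild-type and 3.68% to 4.01% in knockout hearts. For both types the groups do not overlap, and for H2A they do. Among single tested genes, 4.07% had groups that do not overlap in either direction. The H1 share is mostly that of Hist1h1c against H1f0, and no test was made of these shares.

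Of the 65 members, 14 passed the filter on low counts and were tested, 2 of H1, 2 of H2A, 4 of H2B, 4 of H3 and 2 of H4. None of the 14 passed an adjusted p of 0.05 in edgeR's quasi-likelihood test, in DESeq2 or in limma-voom. Over all 14508 genes tested 0.00689% were called in edgeR, which is Arrdc4 alone. At an unadjusted p under 0.05 edgeR held 1 member, Hist1h1e, where 1.23% of all tested genes were under it, and DESeq2 and limma-voom also held 1. Values were lower in knockout for 12 of the 14 and higher for 2, with a median log2 fold change of -0.25. Over all tested genes 47.7% were lower and the median was 0.01. The groups did not overlap for 3 members, Hist1h1e, Hist1h4i and Hist2h3c2, each lower in knockout, where 1.90% of all tested genes had every knockout value below every wild-type value. No tested member had every knockout value above, as 2.18% of all tested genes did. Since a gene can pass the filter through the genotype in which it is higher, these counts describe the tested members and not the family.

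The median rested on which hearts were used. Without wild-type replicate 3 it was -0.08, with 10 of 14 lower, and without knockout replicate 2 it was -0.48, with 12 of 14 lower. Without both of these libraries it was -0.41, with 12 of 14 lower. In that fit 4 of the 14, Hist1h1c, Hist1h1e, Hist1h2bc and Hist2h3c2, were under an unadjusted p of 0.05 in edgeR, where 6.71% of all 14610 genes tested were under it, and the smallest adjusted p of a member was 0.686. In these 4 hearts 8 of the 14 had every knockout value below every wild-type value, against the 18.6% of all tested genes given above. For 7 of the 14 members the whole 95% interval lay within 2-fold either way, and for 1 of them, Hist3h2a, within 1.5-fold.

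**Figure D3:**
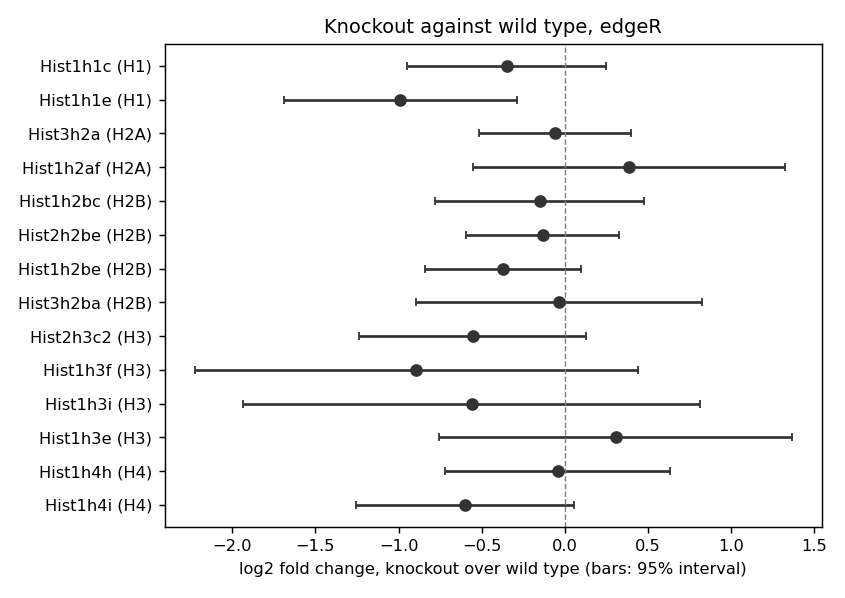
Log2 fold change of knockout over wild type (horizontal) for the 14 tested genes, with 95% intervals from the edgeR fit as bars. The points run from -0.99 for Hist1h1e to 0.39 for Hist1h2af, and Hist1h1e alone has an interval that does not reach 0.

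Among the linker histones, Hist1h1c (ENSMUSG00000036181, chr13:23738808-23740367, plus strand) was the most abundant member. It stood at 120, 104 and 143 CPM in wild-type replicates 1 to 3 and at 79.1, 134 and 75.2 CPM in knockout replicates 1 to 3. Knockout replicate 2 lay within the wild-type range and the other knockout hearts below it. The means were 122 ± 20.1 and 96.1 ± 32.8 CPM (SD, n = 3 each), a log2 fold change of -0.35 (SE 0.26, 95% interval -0.95 to 0.25, adjusted p = 1.0, edgeR). Without wild-type replicate 3 and knockout replicate 2 it was -0.55, with an unadjusted p of 0.00328 and an adjusted p of 0.686 in edgeR. These libraries were chosen after seeing the data, and knockout replicate 2 is the knockout heart where this gene was highest.

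Hist1h1e (ENSMUSG00000051627, chr13:23620629-23622558, minus strand), the other tested H1 gene, had the smallest p of all members. Its libraries held 122, 100 and 70 reads in wild-type and 77, 38 and 46 in knockout hearts, or 3.86, 2.66 and 2.09 CPM against 1.80, 1.31 and 1.20 CPM. All knockout values lay below all wild-type values, and unlike Hist1h1c it was not high in wild-type replicate 3 or knockout replicate 2. The log2 fold change was -0.99 (SE 0.30, 95% interval -1.69 to -0.29), with an unadjusted p of 0.0121 and an adjusted p of 1.0 in edgeR. It was between -0.72 and -1.19 when any 1 library was left out. Without wild-type replicate 1, its highest heart, the unadjusted p was 0.0535 in edgeR. Its annotated exons overlap those of Hist1h2be and of Gm11398 on the same strand, so that reads there cannot be assigned to 1 gene with certainty.

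Promoter windows of the 2 tested H1 genes, 250 bases before to 50 after the RefSeq start (GRCm38.p6), are shown because these genes differ in level and in the hearts where they were highest. Capitals mark matches on either strand to the TATA motif TATAAA, the CAAT-type motif CCAAT, the AAACACA box named for H1 promoters and the octamer ATTTGCAT named for H2B promoters, with no overlaps among them.
Hist1h1c, chr13:23738557-23738856, plus strand: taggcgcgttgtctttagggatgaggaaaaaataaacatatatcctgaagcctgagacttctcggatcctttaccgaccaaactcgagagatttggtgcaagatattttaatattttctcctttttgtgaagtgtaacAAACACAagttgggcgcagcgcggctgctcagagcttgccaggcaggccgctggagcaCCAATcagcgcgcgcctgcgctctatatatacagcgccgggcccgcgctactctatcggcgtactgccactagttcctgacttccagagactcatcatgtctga
Hist1h1e, chr13:23622509-23622808, minus strand: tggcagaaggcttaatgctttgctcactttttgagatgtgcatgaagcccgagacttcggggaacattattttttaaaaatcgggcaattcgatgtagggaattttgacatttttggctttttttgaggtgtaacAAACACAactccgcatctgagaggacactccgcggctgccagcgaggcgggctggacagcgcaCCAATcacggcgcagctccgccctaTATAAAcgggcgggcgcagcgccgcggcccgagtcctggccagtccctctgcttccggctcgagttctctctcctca

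Both windows hold 1 AAACACA and 1 CCAAT, and Hist1h1e alone holds the exact letters TATAAA. The Hist1h1c window holds the letters tatatata after its CCAAT, which the search for TATAAA does not mark. Windows were matched for 60 of the 65 members, 61 windows in all since Hist1h2be has 2. AAACACA was in 5 of 6 H1 windows, against 7.18% of all 32851 windows in the table. CCAAT was in every H1, H2A, H2B and H3 window but in 3 of 12 H4 windows, against 37.4% of all windows. ATTTGCAT was in 6 of 15 H2B and 7 of 18 H2A windows and in no H1, H3 or H4 window, against 1.74% of all. TATAAA was in 57.4% of the members' windows and in 13.6% of all. Such matches describe letters and not binding.

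**Figure D4:**
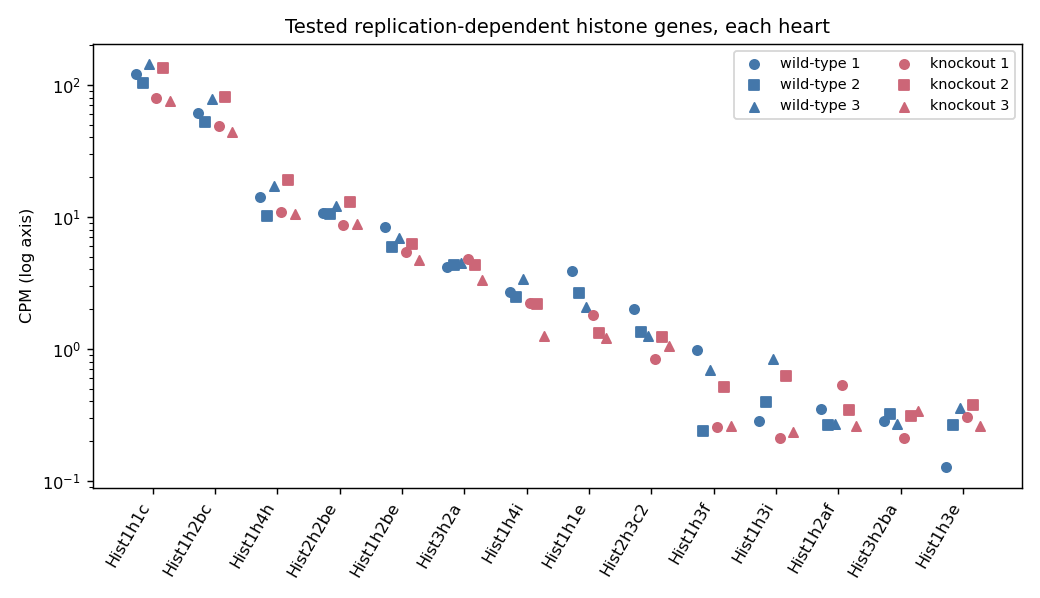
CPM (vertical, log axis) of the 14 tested genes in each heart, wild-type in blue and knockout in red, with a marker shape for each replicate number. Hist1h1c and Hist1h2bc lie above the others, and the colours separate for Hist1h1e, Hist1h4i and Hist2h3c2.

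Among H2B genes, Hist1h2bc (ENSMUSG00000018102, chr13:23684199-23692908, plus strand) stood at 61.7, 52.4 and 78.1 CPM in wild-type and 48.4, 80.8 and 43.8 CPM in knockout replicates 1 to 3. Its highest hearts were knockout replicate 2 and wild-type replicate 3, and the groups overlap. The log2 fold change was -0.15 (SE 0.27, 95% interval -0.78 to 0.48, adjusted p = 1.0, edgeR).

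Hist1h2be (ENSMUSG00000047246, chr13:23583670-23621124, minus strand) stood at 8.42, 5.88 and 6.86 CPM in wild-type and 5.39, 6.27 and 4.71 CPM in knockout hearts. Knockout replicate 2 lay within the wild-type range. The log2 fold change was -0.37 (SE 0.20, 95% interval -0.84 to 0.10). Hist2h2be ranged from 10.5 to 12.1 CPM in wild-type and from 8.68 to 12.99 in knockout hearts. Hist3h2ba, at 9 to 13 reads a library, had a log2 fold change of -0.04 (SE 0.37), which leaves a wide interval of -0.89 to 0.82.

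Among H4 genes, Hist1h4h (ENSMUSG00000060981, chr13:23531050-23531519, plus strand) stood at 14.1, 10.2 and 17.2 CPM in wild-type and 10.9, 18.9 and 10.6 CPM in knockout hearts. The groups overlap and the log2 fold change was -0.04 (SE 0.29, 95% interval -0.72 to 0.63). Hist1h4i (ENSMUSG00000060639, chr13:22040636-22041362, minus strand) stood at 2.72, 2.48 and 3.40 CPM in wild-type and 2.24, 2.17 and 1.26 CPM in knockout hearts. All its knockout values lay below its wild-type values, the closest being 2.24 and 2.48. Its log2 fold change was -0.60 (SE 0.28, 95% interval -1.26 to 0.05, unadjusted p = 0.0667, adjusted p = 1.0, edgeR), and -0.38 without knockout replicate 3. Both genes encode histone H4. Their intervals overlap, and no test was made between their fold changes.

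Among H3 genes, Hist2h3c2 (ENSMUSG00000081058, chr3:96238108-96239127, minus strand) stood at 1.99, 1.33 and 1.25 CPM in wild-type and 0.840, 1.24 and 1.05 CPM in knockout hearts. The groups were apart by 1.25 against 1.24 CPM, or 42 reads against 36, at their nearest. The log2 fold change was -0.55 (SE 0.29, 95% interval -1.24 to 0.13, unadjusted p = 0.0971, adjusted p = 1.0, edgeR). Without wild-type replicate 1, the highest heart, it was -0.32. Of its 50-base stretches 63.5% occur in another gene. The other tested H3 genes held 4 to 31 reads a library, with log2 fold changes of -0.89 for Hist1h3f (SE 0.57), -0.56 for Hist1h3i (SE 0.59) and 0.30 for Hist1h3e (SE 0.45). Leaving out knockout replicate 2 gave -1.18 for Hist1h3i, and leaving out wild-type replicate 3 gave -0.0051. Their intervals, the widest of the 14, each include a 2-fold difference in at least 1 direction.

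Among H2A genes, Hist3h2a (ENSMUSG00000078851, chr11:58954685-58956830, plus strand) had the smallest standard error of the 14. It stood at 4.15, 4.29 and 4.51 CPM in wild-type and 4.78, 4.34 and 3.30 CPM in knockout hearts, and its log2 fold change was -0.06 (SE 0.19, 95% interval -0.52 to 0.40). Its exons overlap Trim17 on the same strand. Hist1h2af stood at 0.348, 0.266 and 0.269 CPM in wild-type and 0.536, 0.345 and 0.262 CPM in knockout hearts, with a log2 fold change of 0.39 (SE 0.40), and 94.0% of its stretches are shared.

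The 51 members that were not tested held 682 reads in all, at most 65 for 1 gene. Those with 20 or more were Hist1h2bb (65 reads), Hist1h1d (58), Hist1h3d and Hist1h3g (50 each), Hist1h2ac (46), Hist1h2ae (43), Hist1h2bn (34), Hist1h4k (33), Hist1h2bj (32), Hist1h2bg (30), Hist1h1a (25) and Hist1h4a (21). A further 27 held fewer reads and 12 held none. Their summed level was 3.42, 2.98 and 3.76 CPM in wild-type and 2.496, 4.89 and 2.28 CPM in knockout hearts, which overlap, with knockout replicate 2 the highest. Some of these genes had groups that do not overlap in CPM, in both directions, and were singled out after their values were seen. They are 3 of the 51, where 4.07% of all tested genes had groups that do not overlap in either direction. Hist1h2bn held 6, 15 and 8 reads in wild-type and 3, 0 and 2 in knockout hearts. Hist1h3g held 7, 5 and 5 reads in wild-type and 12, 11 and 10 in knockout hearts. Hist1h2ab, with 4 reads in all, had lower knockout values. No test was made of any of them, and at these depths the counts are small.

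The order of the hearts differed among the tested members. For 6 of the 14 (Hist1h1c, Hist1h2bc, Hist1h4h, Hist2h2be, Hist1h3i and Hist1h3e) the highest hearts were wild-type replicate 3 and knockout replicate 2, as they were for 29.4% of all tested genes. For 4 members, Hist1h1e, Hist1h2be, Hist2h3c2 and Hist1h3f, the highest heart was wild-type replicate 1. Knockout replicate 3 was the lowest heart for 7 of 14. Grouped by annotation, the 7 tested members with a poly(A) signal near an annotated end had log2 fold changes of -0.60 to -0.04 (median -0.13), and the 7 without one -0.99 to 0.39 (median -0.55). These ranges overlap and no test was made between them.

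It is not known whether the reads of the histone genes came from mRNA with or without a poly(A) tail. Of the genes lower in every knockout heart, Hist1h4i has a poly(A) signal near an annotated end, and Hist1h1e and Hist2h3c2 have none. RNAs that lack a standard poly(A) tail were listed beside them, and some of these RNAs had lower values in knockout hearts. Of 14 such RNAs listed, 4 were tested and 2, Rn7s6 and Rnu11, were at 0 in every heart. Rn7sk, which restrains transcription elongation, stood at 3.26, 2.45 and 2.39 CPM in wild-type and 0.863, 1.79 and 1.65 CPM in knockout hearts (log2 fold change -0.92, SE 0.32). Rpph1, the RNA of ribonuclease P, stood at 0.949, 0.320 and 0.298 against 0.0933, 0.207 and 0.0524 CPM (log2 fold change -2.18, SE 0.69). Rmrp, its relative, was not tested, with 0.570, 0.266 and 0.358 against 0.0466, 0.0689 and 0.105 CPM. All 3 had no overlap between genotypes, where 1.90% of all tested genes had every knockout value below every wild-type value. They were highest in wild-type replicate 1, and neither tested one passed the threshold (unadjusted p = 0.0218 and 0.0153, adjusted p = 1.0 each, edgeR). In knockout hearts Rpph1 and Rmrp had values near the 0.0700 to 0.103 CPM that 3 counts make up. The other untested RNAs of the list are not described here. Malat1 (0.05, SE 0.19) and Neat1 (-0.31, SE 0.38), whose groups overlap, made up nearly all of the list's summed level, 291 to 305 CPM in wild-type and 226 to 339 CPM in knockout hearts. The part of this in the histone values was not tested.

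Genes of S phase mostly had higher values in knockout hearts, unlike the tested histone genes. Of 31 S phase and proliferation genes, none passed the threshold, 29 had higher and 2 lower values in knockout, and the median log2 fold change was 0.35. Over all tested genes 47.7% were lower and the median was 0.01. At an unadjusted p under 0.05 in edgeR there were 3, all higher, where 1.23% of all tested genes were under it. They were Mcm7, Top2a and the thymidine kinase Tk1 (0.54, SE 0.22), the last named after its values were seen. The mean deviation over the list was -0.23 in knockout replicate 2, below the -0.13 and -0.12 of wild-type replicates 1 and 2, so the genotypes overlap. Their summed level was 175 to 202 CPM in wild-type and 193 to 229 CPM in knockout hearts. Pcna, the sliding clamp of DNA replication, stood at 0.10 (SE 0.22), Gmnn, which limits replication origin licensing, at -0.18 (SE 0.29), and Dut, a nucleotide pool enzyme, at 0.04 (SE 0.24). Mcm7, of the replicative helicase, had 0.35 (SE 0.14) and the topoisomerase Top2a 2.11 (SE 0.85). Top2a reached 8.56 CPM in knockout replicate 1, where the summed histone level was the second lowest, and 2.67 or less elsewhere. Of the 31 genes, 21 were highest in knockout replicate 1.

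**Figure D5:**
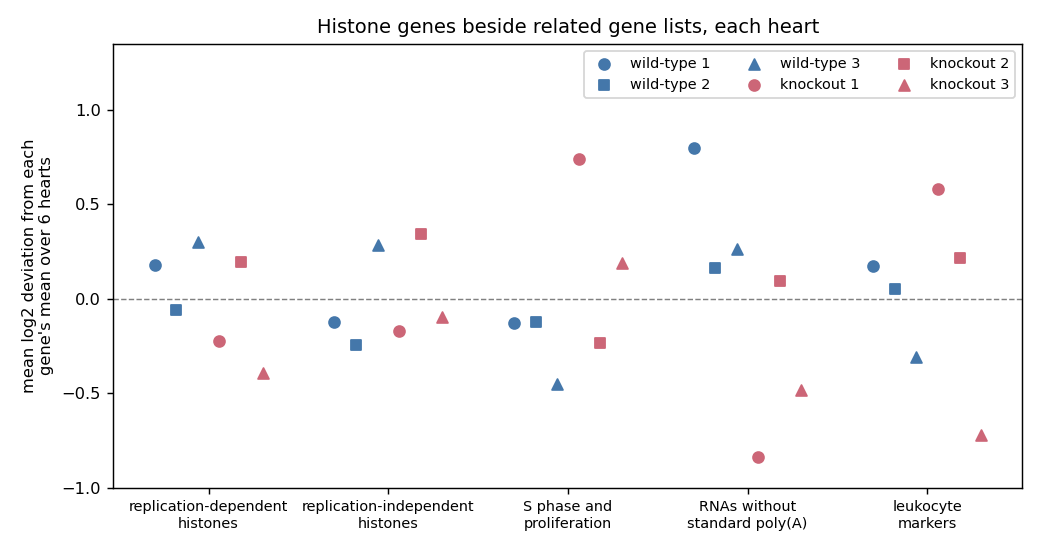
Mean log2 deviation of each heart from each gene's mean over 6 hearts (vertical), for the 14 tested histone genes and the tested genes of 4 related lists, wild-type in blue and knockout in red. The histone genes run from -0.39 in knockout replicate 3 to 0.30 in wild-type replicate 3, while S phase genes are highest in knockout replicate 1 (0.74).

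The replication-independent histone genes held 0 calls among 11 tested in edgeR and 0 at an unadjusted p under 0.05, with 6 higher, 5 lower and a median log2 fold change of 0.01. H1f0 stood at 128, 103 and 162 CPM in wild-type and 94.1, 175 and 100.2 CPM in knockout hearts (log2 fold change -0.09, SE 0.28). It was highest in the same hearts as Hist1h1c. H3f3a (-0.03, SE 0.36) and H3f3b (-0.04, SE 0.19) had values near 0, and H2afy, a macroH2A gene, 0.17 (SE 0.15). H1fx, at 1.17 CPM or less in every heart, had the smallest p of the list (0.73, SE 0.32).

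The machinery that makes and handles these mRNAs also held no call. Of 14 tested genes for the processing and decay of histone mRNA 3′ ends, 9 were higher and 5 lower, with a median of 0.01 and none under an unadjusted p of 0.05 in edgeR. Upf1, a helicase of RNA decay, stood at 0.09 (SE 0.26), Srrt, a cap-complex partner, at 0.01 (SE 0.13), Cpsf3, the nuclease that cuts histone pre-mRNA, at 0.04 (SE 0.18), Cstf2t, a cleavage factor, at -0.15 (SE 0.12) and Eri1, an exonuclease of histone mRNA, at 0.07 (SE 0.13). Of 17 histone chaperones and deposition factors, 14 were higher and 3 lower, with a median of 0.08, where 47.7% of all tested genes were lower. In edgeR 1 was under an unadjusted p of 0.05, as 1.23% of all tested genes were. That was Chaf1b, a subunit of chromatin assembly factor 1 (1.01, SE 0.40), at 0.863 CPM or less in every heart. Asf1b stood at 0.47 (SE 0.25), and the abundant Nap1l4 (0.01, SE 0.13), Rbbp7 (-0.03, SE 0.13) and Rbbp4 (0.00, SE 0.27) had values near 0.

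Blood and immune cells also carry histone mRNA. All 10 tested leukocyte markers of 12 listed had higher values in knockout (median log2 fold change 0.23), where 47.7% of all tested genes were lower. None was under an unadjusted p of 0.05 in edgeR, and none of the 12 was at 0 in all hearts. The knockout hearts differed, since the mean deviation of these markers was highest in knockout replicate 1 (0.58) and lowest in knockout replicate 3 (-0.72). Their summed level was 33.0 to 62.2 CPM in wild-type and 32.2 to 88.4 CPM in knockout hearts. This sum was lowest in wild-type replicate 3 and knockout replicate 2, the hearts with the highest summed histone level. The mean deviation, in which each tested marker counts alike, did not follow it. It was -0.31 in wild-type replicate 3 and 0.22 in knockout replicate 2. The 5 tested red cell markers of 8 were also higher in value (median 0.05), with sums of 525 to 760 CPM in wild-type and 453 to 801 in knockout hearts. The part of these cells in the histone values was not tested.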

How the data were processed

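The authors deposited 1 table of whole-number read counts per Ensembl gene and heart, not normalized. Per the submitters' processing notes, which assign no roles, the tools were DESeq2, STAR, Subread 1.5.2 and featureCounts, on GRCm38.p6. Annotation release, strand setting, RNA selection and multi-mapping treatment: not given in the sources used here. Symbols, exons and transcripts came from GENCODE release M21 (49056 of 49315 identifiers matched) and promoters from RefSeq, matched by NCBI gene number. Genes passing filterByExpr (minimum count 10, minimum total 15) were scaled by TMM and tested with edgeR 4.0.16 in R 4.3.3, 14508 genes adjusted together by Benjamini-Hochberg at 0.05. CPM are counts over TMM-scaled library sizes. Standard errors are the fold change over the root of the F statistic. List deviations used log2 CPM with 0.01 added. DESeq2 1.42.0 and limma 3.58.1 (voom) were alternatives. Since the labels do not say that samples came from separate animals, p-values measure only the spread between these samples. Every tested member was named, and untested members with 20 or more reads; from each list, up to 3 of the highest mean CPM and 2 of the smallest p. Heart, red cell and leukocyte lists are given mostly by their sums, and 2 listed genes, Symplk and Zcchc6, were not matched by symbol. Members and lists were chosen with earlier results of these data known.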

Additional observations from a re-analysis of the deposited data

How the results depend on the processing

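None of the 14 tested members was called under any alternative, and the median log2 fold change of the tested members kept its sign under all of them, from -0.48 to -0.08 with 1 library left out and from -0.41 to -0.24 under the others. The filter of 1 CPM in 3 libraries kept 9 members. With a replicate block no gene was called, Arrdc4 included, against 1 without it. Same-numbered hearts did not deviate together (correlations of 0.18, -0.65 and -0.40), while wild-type replicate 3 and knockout replicate 2 did (0.68). With 3 hearts a group, such correlations cannot show whether same-numbered hearts were paired, and the labels do not say. Leaving out 1 library gave 0 to 1 called genes, with 0 without knockout replicate 3, and leaving out wild-type replicate 3 and knockout replicate 2 together, chosen after seeing the data, gave 2. With 1 library left out, the log2 fold change reversed for Hist1h4h (range -0.37 to 0.14; 0.14 without wild-type replicate 3, 0.086 and 0.10 without knockout replicates 1 and 3), Hist1h2bc (-0.48 to 0.015; 0.015 without wild-type replicate 3, 0.011 without knockout replicate 3), Hist3h2ba (-0.19 to 0.16; 0.037 without wild-type replicate 2, 0.16 without knockout replicate 1) and Hist3h2a (-0.18 to 0.081; 0.081 without knockout replicate 3). The cause was not tested. A minimum of 10 counts left 12, 16 and 14 detected members in wild-type and 15, 18 and 16 in knockout replicates 1 to 3, since it is stricter. Thinning to the smallest library gave 37.0 to 43.6 expected members with a read. Without Hist1h1c the summed level was 113, 94.3 and 132 CPM in wild-type and 87.1, 135 and 78.3 CPM in knockout hearts. Low counts kept 51 members from the test.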
